A study of Rattus norvegicus with 12 samples.

Results

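The microvillus cytoskeleton genes examined here are 8 genes for actin bundlers, linkers and protocadherins of the enterocyte microvillus: Espn, Vil1, Ezr, Pls1, Myo1a, Cdhr2, Cdhr5 and Eps8. They were taken as every probe set whose only gene symbol in the platform annotation is one of these names. The rule found 7 probe sets among 31142, with 5 of 15866 on the Affymetrix rat array 230A (Cdhr2, Cdhr5, Espn, Ezr and Pls1) and 2 of 15276 on the 230B array (Eps8 and Vil1). Each of these 7 genes had 1 probe set, and no probe set met the rule for Myo1a, the brush border myosin that ties the actin core to the membrane, so it was not analysed here. RNA came from scrapings of the rat jejunal mucosa of a low Fe group and a high Fe group, 3 samples each, and every sample was run on both array types. All samples carry the week number 12, and some carry iron deficiency and anemia as keywords. The labels do not say what the week counts from, how iron was varied, the strain, sex or genotype of the rats, or how many animals stand behind a sample. The p-values therefore cover the spread among these arrays alone, and part of that spread may be technical.

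A microvillus is a finger of plasma membrane held up by a bundle of parallel actin filaments, and the brush border is the carpet of such fingers on the gut-facing side of the absorptive enterocyte. Villin, espin and plastin crosslink the filaments into the bundle. Ezrin and myosin 1a link the bundle to the membrane around it. EPS8 sits at the tip and binds filament ends, and the protocadherins CDHR2 and CDHR5 join the tips of neighbouring microvilli to one another through an adhesion complex with harmonin, ANKS4B and myosin 7b. Packing of the brush border enlarges the membrane that carries digestive enzymes and nutrient transporters, iron transporters included.

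Promoter sequences from RefSeq, rat build GRCr8, matched 7 of the 8 genes by symbol, and Eps8 was not matched. Searched on both strands of the 250 bases before the annotated start were GTTAAT (half-site of HNF1 factors), CAAAGT (half-site of HNF4), TTTAT (core of CDX factors), GGGCGG (GC box) and ACGTG (core of the hypoxia response element). The sequences below are given 5′ to 3′ on the gene's strand, with motif letters in capitals. Espn is shown because its groups did not overlap in the comparison that follows, Vil1 as the classical marker of the brush border, and Cdhr2 because it holds both HNF half-sites. For Espn only the 66 bases outside the annotated gene are shown. The window of Cdhr5 also reached into its annotated gene, by 92 bases, and those of Pls1 and Myo1a lay wholly inside theirs.
Espn, chr5:167943169-167943234, minus strand: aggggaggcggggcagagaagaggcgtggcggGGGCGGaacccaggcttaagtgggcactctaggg
Vil1, chr9:83439998-83440247, plus strand: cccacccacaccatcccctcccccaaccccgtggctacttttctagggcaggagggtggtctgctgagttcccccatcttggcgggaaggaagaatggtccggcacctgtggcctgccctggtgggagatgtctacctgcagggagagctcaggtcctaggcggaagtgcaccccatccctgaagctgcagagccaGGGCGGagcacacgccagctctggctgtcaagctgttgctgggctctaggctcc
Cdhr2, chr17:9917699-9917948, minus strand: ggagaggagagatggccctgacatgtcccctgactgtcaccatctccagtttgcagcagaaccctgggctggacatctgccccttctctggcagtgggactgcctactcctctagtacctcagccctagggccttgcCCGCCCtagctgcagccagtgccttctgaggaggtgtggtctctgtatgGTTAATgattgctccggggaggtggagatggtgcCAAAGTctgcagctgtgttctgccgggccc
The GC box was in 4 of the 7 windows, those of Espn (2 matches, 1 of them in the stretch shown), Vil1, Cdhr2 and Ezr, and in 30.5% of the 33469 promoters of the build. GTTAAT and CAAAGT were in 1 window each, both in Cdhr2, and in 6.45% and 12.9% of all promoters. TTTAT was in 2 windows, Cdhr5 and Pls1, both times inside the annotated gene, against 39.3% of all, and ACGTG in 1, Ezr, against 16.6%. The only overlapping matches were in Ezr, where ACGTG matched both strands of 1 site. The GC content was 73.6% in the Espn window, 74.4% in Ezr, 64% in Vil1, 60% in Cdhr2, 54.4% in Cdhr5, 53.6% in Myo1a and 47.2% in Pls1, against a median of 51.2% over all promoters. A match is a string of letters and not a measured binding site.

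Values are signals, the brightness of a probe set on a linear scale after the authors' scaling, and the precision is limited by the number of arrays. Scaling had set the trimmed mean of every array of a type equal, at about 500.1 on 230A and 500.2 on 230B, so a shift common to most genes is hidden, and signals are compared within a probe set only. High Fe replicate 2 had the brightest spiked hybridization controls, 1.70 times the geometric mean of the 230A arrays against 0.826 to 1.01 on the others. Low Fe replicate 3 had a 5′/3′ ratio of the beta-actin control probe sets of 0.0539 on 230A and 0.0473 on 230B, against 0.591 to 0.836 and 0.499 to 0.896 on the others. The GAPDH ratio of this sample was 0.794 and 0.873, against 0.807 to 0.922 and 0.821 to 0.939 on the others. The low beta-actin ratio may come from RNA or target quality, which was not tested. The 5′/3′ ratio of GAPDH put low Fe replicates 2 and 3 and high Fe replicate 1 in a lower set (0.794 to 0.811 on 230A) and the other samples in a higher set (0.876 to 0.922). On 230B these sets did not stand apart, with 0.873 for low Fe replicate 3 and 0.877 for low Fe replicate 1, so within-set values are given for 230A only.

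None of the 7 probe sets passed the threshold of a limma adjusted p of 0.05 between low Fe and high Fe mucosa. On 230A that is 0 of 5, where 9 of all 9520 probe sets tested passed (0.0945%), and on 230B 0 of 2, where 0 of 9166 passed (0%). At an unadjusted limma p under 0.05 there was 1 of 5 on 230A, Espn, with 640 probe sets over the whole type (6.72%), and 0 of 2 on 230B, with 940 over the whole type (10.3%). All 7 members passed the filter on dim probe sets, which lay at mean signals of 108.9 on 230A and 199.5 on 230B. Log2 differences, low Fe minus high Fe on the log2(signal + 16) scale, ran from -0.42 for Espn to 0.09 for Eps8, with 3 of 5 below 0 on 230A and 1 of 2 on 230B, against 53.2% and 54.9% of all probe sets tested. The median of the 5 on 230A was -0.03, against -0.02 over all 230A probe sets tested, and that of the 2 on 230B was -0.04, against -0.04.

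**Figure D1:**
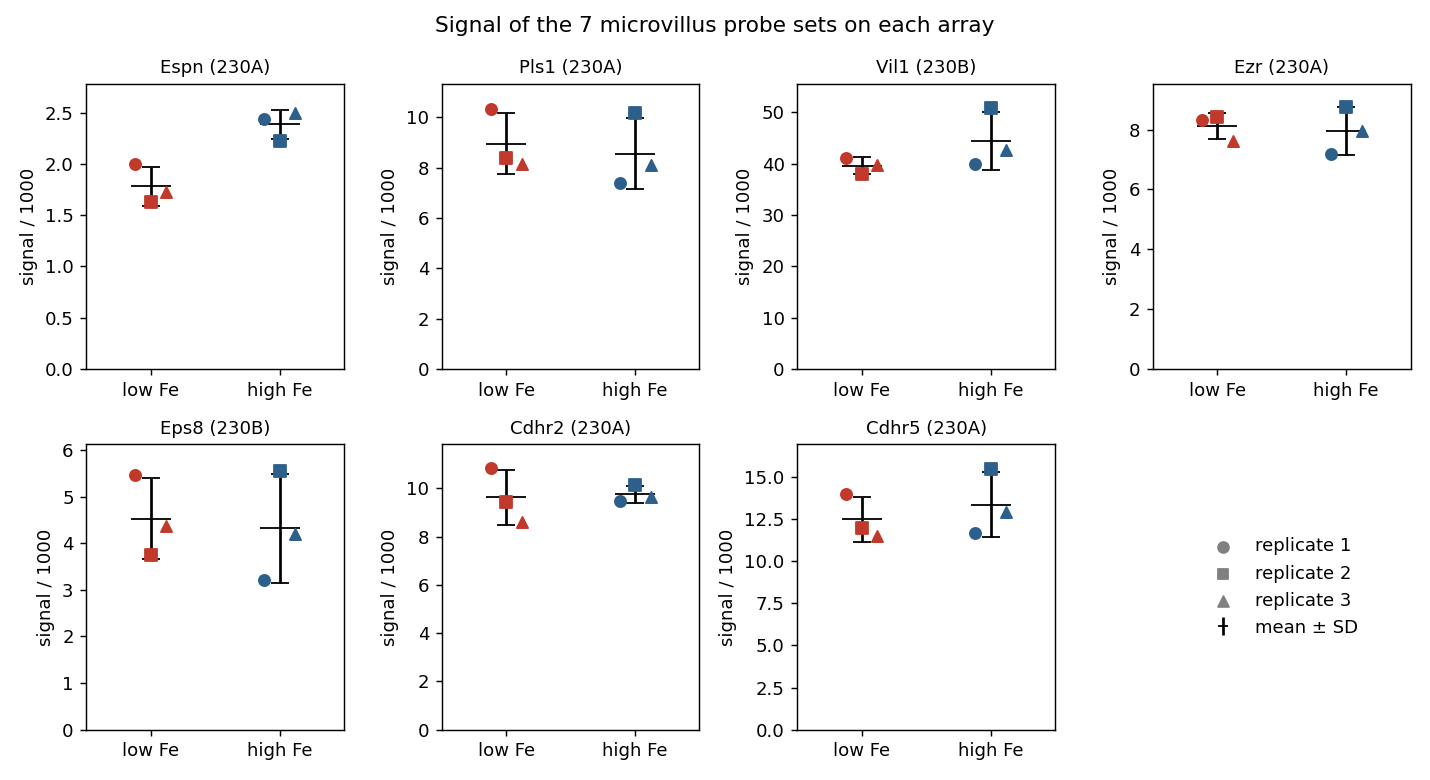
Linear signal, in units of 1000, of each microvillus probe set on each array, with low Fe samples in red on the left and high Fe samples in blue on the right of each panel. Marker shape gives the replicate number and the black bar the mean ± SD (n = 3 each). Espn is the 1 panel in which the groups do not overlap.

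Espn encodes espin, an actin bundler of microvilli and of the stereocilia of hair cells. Its signals were 1995, 1629 and 1726 in low Fe replicates 1 to 3, and 2437, 2228 and 2499 in high Fe replicates 1 to 3. All 3 low Fe values lay below all 3 high Fe values, which was so for 6.12% of the 230A probe sets tested, and for 11.7% in either direction. Espn averaged 1784 ± 189.6 in low Fe mucosa and 2388 ± 142 in high Fe mucosa (SD, n = 3 each). The log2 difference was -0.42 ± 0.13 (SE), a fold of 0.747 with a 95% interval from 0.612 to 0.912. It did not pass after adjustment (limma adjusted p = 0.594, with 0.00927 before adjustment). By unadjusted p it ranked 147 of 9520, and an exact two-sided permutation test gave p = 0.1, the smallest that 3 samples against 3 allow. In mucosal scrapings, fewer enterocytes and less Espn RNA per enterocyte cannot be told apart.

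The Espn difference was also taken within the GAPDH ratio sets and without the arrays that stood apart. Within the lower GAPDH ratio set, 2 low Fe arrays (low Fe replicate 3, with the low beta-actin ratio, among them) and 1 high Fe array, the log2 difference was -0.53, and within the higher set, 1 low Fe array and 2 high Fe arrays, it was -0.24, with no test in either. The other 4 members on 230A ran from -0.07 to 0.16 in the lower set and from -0.02 to 0.19 in the higher. Without low Fe replicate 3 and high Fe replicate 2 together the Espn difference was -0.45 ± 0.17, and without any 1 array it ran from -0.50 to -0.36. Scaling to the hybridization controls gave -0.05 for Espn, where the median of all 230A probe sets was 0.34 and the median of the 5 members was 0.35. RefSeq lists 6 transcripts of Espn, and which of them the probe set reads was not determined here.

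Pls1 encodes plastin 1, the fimbrin of the intestinal brush border, which crosslinks actin filaments into tight bundles. Pls1 signals were 10336, 8368 and 8152 in low Fe replicates 1 to 3, and 7404, 10149 and 8121 in high Fe replicates 1 to 3. The groups overlapped, with low Fe replicate 1 and high Fe replicate 2 both high. Pls1 averaged 8952 ± 1203 in low Fe and 8558 ± 1424 in high Fe (SD, n = 3 each), a log2 difference of 0.07 ± 0.15 (limma adjusted p = 0.936). The 95% interval of the fold ran from 0.827 to 1.33. Its log2 difference was -0.04 without low Fe replicate 1 and 0.20 without high Fe replicate 2.

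Vil1 encodes villin, which bundles actin and, at high calcium, can sever it. On 230B its signals were 41208, 37952 and 39705 in low Fe replicates 1 to 3, and 39873, 50856 and 42601 in high Fe replicates 1 to 3. The high Fe values spanned a wide range that began inside the low Fe range, and high Fe replicate 2 was the brightest array. The groups of neither 230B member stood apart, where 17.5% of the 230B probe sets did. Vil1 averaged 39621.5 ± 1629 in low Fe and 44443 ± 5719 in high Fe (SD, n = 3 each), a log2 difference of -0.16 ± 0.13 (limma adjusted p = 0.662). The 95% interval of the fold, 0.729 to 1.10, leaves room for a fall of up to 27.1% and a rise of up to 10.1%. Without high Fe replicate 2 the log2 difference was -0.06.

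Ezr encodes ezrin, the linker between the actin core and membrane proteins. Ezr signals were 8324, 8410.5 and 7629.5 in low Fe replicates 1 to 3, and 7173, 8752 and 7947 in high Fe replicates 1 to 3. The low Fe values all lay within the high Fe range. Ezr averaged 8121 ± 428 in low Fe and 7957.5 ± 789.8 in high Fe (SD, n = 3 each), a log2 difference of 0.03 ± 0.12 (limma adjusted p = 0.968). The 95% interval of the fold was 0.853 to 1.23, which leaves room for a fall of up to 14.7%.

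Eps8 encodes the tip protein that caps and bundles actin filaments. On 230B its signals were 5463, 3747 and 4368.5 in low Fe replicates 1 to 3, and 3208, 5546 and 4193 in high Fe replicates 1 to 3. It was the most variable of the 7, with 1 bright array in each group. Eps8 averaged 4526 ± 869 in low Fe and 4316 ± 1174 in high Fe (SD, n = 3 each), a log2 difference of 0.09 ± 0.23 (limma adjusted p = 0.908). Its fold interval, 0.737 to 1.53, was the widest of the 7.

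Cdhr2 and Cdhr5 encode the protocadherins of the links between microvillus tips. Cdhr2 signals were 10827, 9429 and 8605.5 in low Fe replicates 1 to 3, and 9465, 10146 and 9646 in high Fe replicates 1 to 3. The high Fe values lay inside the low Fe range. Cdhr2 averaged 9620.5 ± 1123 in low Fe and 9752 ± 353 in high Fe (SD, n = 3 each), a log2 difference of -0.03 ± 0.12 (limma adjusted p = 0.978) with a fold interval of 0.818 to 1.18. Cdhr5 signals were 13977, 11966 and 11499 in low Fe replicates 1 to 3, and 11668, 15460.5 and 12903 in high Fe replicates 1 to 3. High Fe replicate 2 was the brightest and the groups overlapped. Cdhr5 averaged 12481 ± 1317 in low Fe and 13344 ± 1935 in high Fe (SD, n = 3 each), a log2 difference of -0.09 ± 0.14 (limma adjusted p = 0.903) with a fold interval of 0.758 to 1.16. Both log2 differences were above 0 without high Fe replicate 2, at 0.0034 for Cdhr2 and 0.02 for Cdhr5.

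**Figure D2:**
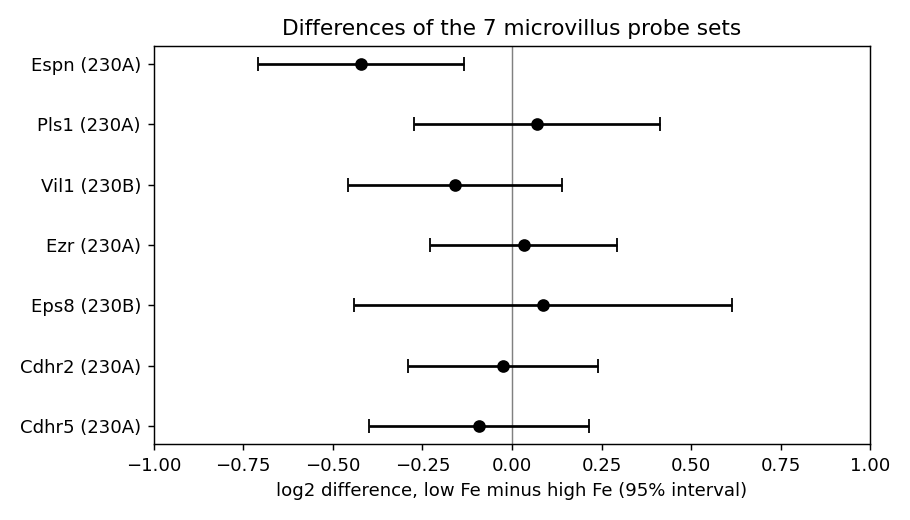
Log2 difference, low Fe minus high Fe, of each microvillus probe set (point) with its 95% interval from limma (bar, n = 3 each). The interval of Espn lies below 0, from -0.71 to -0.13, before adjustment for the number of probe sets, and the other 6 intervals include 0.

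The members did not share 1 order of the samples. High Fe replicate 2 was the brightest array for 4 of the 7, namely Cdhr5, Ezr, Eps8 and Vil1, while for Espn it was the dimmest of the high Fe arrays. Espn was therefore also set against Ezr, Pls1, Cdhr2 and Cdhr5 within each 230A array, which removes the scaling of the array. The log2 signal of Espn minus the mean log2 signal of those 4 was -2.41, -2.52 and -2.35 in low Fe replicates 1 to 3, and -1.84, -2.28 and -1.92 in high Fe replicates 1 to 3. All low Fe values lay below all high Fe values, high Fe replicate 2 by the least, and the means differed by -0.42. This ratio was formed after the values were seen and has no test, and its level has no meaning of its own because it sets different probes against each other.

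**Figure D3:**
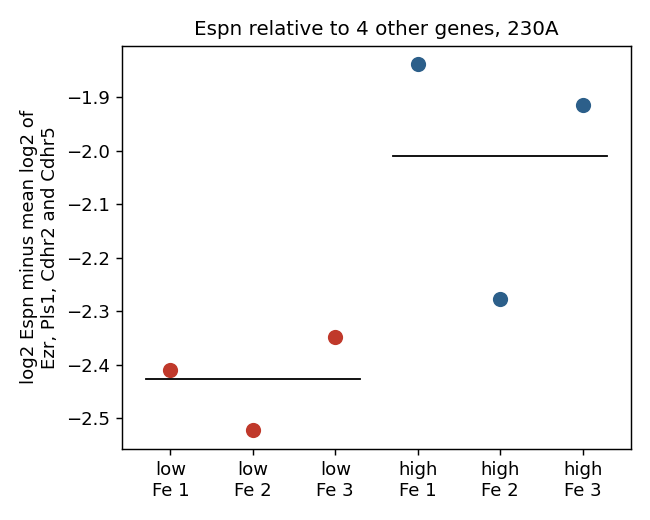
Log2 signal of Espn minus the mean log2 signal of Ezr, Pls1, Cdhr2 and Cdhr5 on each 230A array, with low Fe samples in red on the left and high Fe samples in blue on the right. Black lines are group means, -2.43 for low Fe and -2.01 for high Fe.

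The partners of the protocadherins gave no probe set past the threshold, with 4 of 4 genes tested and 0 higher or lower. Myo7b, the motor of the tip link complex, averaged 24736 ± 1172 in low Fe and 22667 ± 2281 in high Fe on 230B (SD, n = 3 each), a log2 difference of 0.13 ± 0.13. Calml4, a light chain of that motor, had a log2 difference of -0.12 ± 0.13, the scaffold Anks4b 0.05 ± 0.11 and Ush1c, which encodes harmonin, -0.03 ± 0.19. Without high Fe replicate 2 Myo7b was at 0.04 and Calml4 at 0.00017, and without high Fe replicate 3 Anks4b was at 0.00023 and Ush1c at 0.12.

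Of the ezrin relatives, scaffolds and kinases, 7 of 9 measured genes were tested and 0 passed in either direction, with a median log2 difference of 0.06. Ezrin is switched on by phosphorylation by kinases that include Slk and Stk10. Slk had a log2 difference of -0.39 ± 0.17 on 230B without overlap between the groups (adjusted p = 0.495). Less bright 230B probe sets of the gene gave 0.63 ± 0.22, also without overlap, and -0.0028 ± 0.43, so its probe sets disagree. Stk10 had 0.24 ± 0.12, also without overlap (adjusted p = 0.765). Groups did not overlap for 17.5% of all 230B and 11.7% of all 230A probe sets tested. The scaffold Nherf4 had 0.24 ± 0.17 on 230B (0.10 without high Fe replicate 3), the scaffold Nherf1 0.01 ± 0.11 (-1.55 ± 1.11 for a less bright probe set), and the ezrin relatives Rdx and Msn 0.23 ± 0.32 and 0.06 ± 0.14. Without 1 array Rdx ran from 0.04 to 0.47 and Msn from 0.0011 to 0.14. Msn and Nherf1 were named after their values were seen, as were Eps8l1 and Eps8l2.

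Actin regulators gave 0 of 18 tested genes past the threshold, 11 with a log2 difference above 0 and 7 below, with a median of 0.08. Over both array types, 54% of all probe sets tested were below 0. Lcp1, the plastin of leukocytes, had a log2 difference of 0.27 ± 0.15, the capping protein subunit Capzb 0.17 ± 0.12 (0.09 without high Fe replicate 2, and 0.67 ± 0.55 for a less bright 230B probe set) and Clic5, an ezrin-associated protein, -0.18 ± 0.13. The EPS8 relatives Eps8l1, Eps8l2 and Eps8l3 had log2 differences of 0.68 ± 0.72, 0.07 ± 0.11 and 0.18 ± 0.14. A less bright 230B probe set of Eps8l2 gave -0.87 ± 1.14. Without high Fe replicate 1 Eps8l2 was at 0.04, and without high Fe replicate 3 Eps8l3 was at 0.09. Eps8l1 was dim and uneven, with mean signals of 301 ± 70.8 in low Fe and 254 ± 196 in high Fe on 230B (SD, n = 3 each), and its log2 difference was -0.27 without high Fe replicate 2.

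Other myosins and light chains gave 0 of 10 tested genes past the threshold, 7 above 0 and 3 below (54% of all probe sets tested were below 0), with a median of 0.11. The nonmuscle myosin Myh9 of the terminal web had a log2 difference of 0.40 ± 0.20 (0.18 without high Fe replicate 2) and Myo1e 0.27 ± 0.15 (0.12 without high Fe replicate 2). The recycling motor Myo5b had 0.11 ± 0.12 and the endocytic motor Myo6 0.14 ± 0.15 (0.04 without high Fe replicate 2). A less bright 230A probe set of Myo6 gave -0.31 ± 0.13 without overlap, as 6.12% of all 230A probe sets tested were lower in low Fe without overlap. Terminal web and keratin genes gave 0 of 11. Krt19, a keratin of the apical network, had 0.43 ± 0.17 (adjusted p = 0.721), the linker Plec 0.39 ± 0.16 without overlap (adjusted p = 0.734, and 0.24 without high Fe replicate 2), and Krt18 0.19 ± 0.15 (0.06 without low Fe replicate 3). The actin binder Lima1 had -0.27 ± 0.13 with overlap. Its 230B probe set gave 0.48 ± 0.28 without overlap, beside 17.5% of all 230B probe sets tested in either direction. Like Plec, 5.61% of all 230A probe sets tested were higher in low Fe without overlap.

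Apical trafficking and membrane genes gave 0 of 9 past the threshold. Muc3, a transmembrane mucin of the glycocalyx that covers the microvilli, had signals averaging 6413 ± 567 in low Fe and 4439 ± 458 in high Fe (SD, n = 3 each). All 3 low Fe values of Muc3 lay above all 3 high Fe values, as for 5.61% of 230A probe sets, and the log2 difference of 0.53 ± 0.13 had a limma adjusted p of 0.481. Prom1, a protein of membrane protrusions, had 0.48 ± 0.24 (0.26 without low Fe replicate 2), and the apical fusion protein Stx3 0.34 ± 0.17 (-0.42 ± 0.77 for a less bright probe set). The small GTPase Cdc42 had 0.24 ± 0.13 on 230A without overlap, beside the same 5.61% (0.14 without high Fe replicate 2). A less bright 230A probe set of Cdc42 gave -0.26 ± 0.23. Read on 230B, the first Cdc42 probe set gave 0.11 ± 0.18 with overlap. Another 230B probe set of the gene gave 0.01 ± 0.25, also with overlap. Transcription factors of the intestinal epithelium gave 0 of 8. Cdx2 had 0.22 ± 0.12 without overlap, beside the same 5.61% (0.12 without high Fe replicate 2). Klf5, Hnf4a and Gata6 had -0.96 ± 0.58, -0.75 ± 0.68 and -0.20 ± 0.22. Without 1 array Klf5 ran from -1.50 (without low Fe replicate 1) to -0.41 (without high Fe replicate 3), Hnf4a from -1.50 (without high Fe replicate 1) to -0.33 (without low Fe replicate 2) and Gata6 from -0.42 (without low Fe replicate 1) to 0.05 (without low Fe replicate 2). For Hnf4a and Klf5 the brightest 230B probe sets gave 0.03 ± 0.13 and 0.21 ± 0.16, and other 230B probe sets of Klf5 gave -0.39 ± 0.49 and -0.29 ± 0.34. On 230A, Hnf4a signals were 711, 794 and 864 in the higher GAPDH ratio set and 150, 204 and 162 in the lower. Klf5 signals were 1240, 950 and 2466 against 561, 275 and 627. With that set as a block, Hnf4a was at -0.06 and Klf5 at -0.48. Less bright 230A probe sets of Nherf1, Hnf4a, Cdc42 and Stx3 split the samples in the same way. On 230B the same samples split in this way for the less bright probe set of Eps8l2 and for the Klf5 probe sets at -0.39 and -0.29. The values of Cdc42 and Stx3 given above for less bright 230A probe sets are therefore not free of this split. The cause of this split was not tested.

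**Figure D4:**
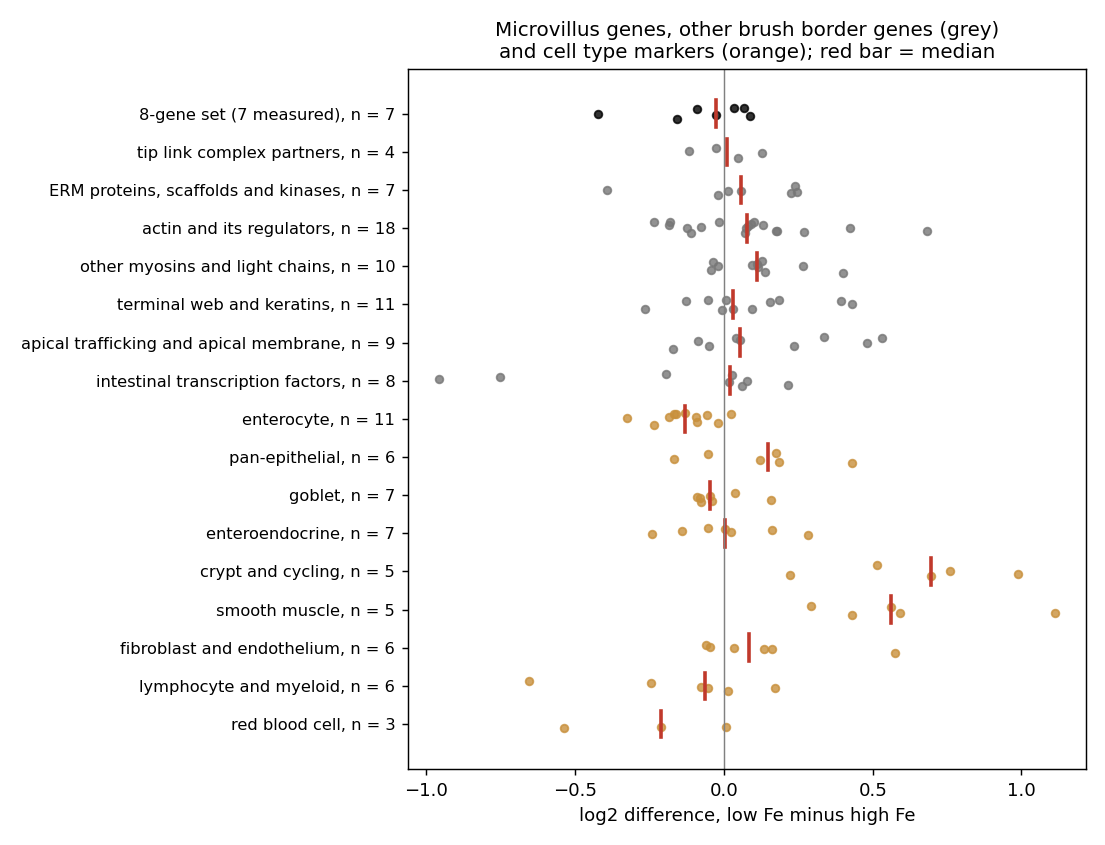
Log2 difference, low Fe minus high Fe, of each tested gene (point) in the microvillus set (black), the lists of other brush border genes (grey) and the lists of cell type markers (orange), each list's median as a red bar. Lists with under 3 tested genes are left out. The points of the microvillus set lie between -0.42 and 0.09.

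Lists of cell type markers were read to describe the scrapings. They hold no list for a gut region, so the jejunal label was not checked. All 11 measured enterocyte markers passed the filter on dim probe sets. Fabp1, the liver-type fatty acid binding protein of enterocytes, averaged 16679 ± 2121 in low Fe and 19133 ± 5330 in high Fe (SD, n = 3 each). Its signals were 19102, 15772 and 15162 in low Fe replicates 1 to 3, and 14361, 24886 and 18153 in high Fe replicates 1 to 3. Of the 11, 0 passed the threshold, 10 had a log2 difference below 0 (as did 53.2% of all 230A probe sets tested) and 1 above, and the median was -0.13. High Fe replicate 2 was the brightest array for every one of the 11 except Treh. Anpep, for example, read 20384 on it, against 12652 and 15554 on the other high Fe arrays. The enterocyte markers were not refitted without this array, so their lean below 0 may rest on it. The summed signal of the 11 ran from 109105 to 133710 in low Fe and from 106605 to 165209 in high Fe, the highest on high Fe replicate 2. Of 7 smooth muscle markers, 5 were tested, all 5 above 0 with a median of 0.56 and 0 past the threshold. Of these, 3 (Smtn, Mylk and Des) were higher in low Fe without overlap, beside 5.61% of all 230A probe sets tested. The summed signal of the 7 ran from 4438 to 5822 in low Fe and from 3405 to 4092 in high Fe. Most of that sum was Mylk, at 3391 to 4013 in low Fe and 2436 to 2926 in high Fe, and the sums of the other 6 overlapped, at 1048 to 1808.5 in low Fe and 903 to 1166 in high Fe. Of 7 crypt and cycling markers, 5 were tested, all above 0 with a median of 0.70 and 0 past the threshold, and 2 of the 4 tested on 230A (Pcna and Mki67) were higher in low Fe without overlap, beside the same 5.61%. The dim markers Lgr5 and Ascl2 were not tested, and without the filter they had log2 differences of 0.10 and -0.89. The 6 on 230A summed to 2411 to 3656 in low Fe and 1475 to 1644 in high Fe. Most of that sum was Pcna, at 1737 to 2686 in low Fe and 1000 to 1068 in high Fe, and the sums of the other 5 overlapped, at 494 to 970.2 in low Fe and 406.5 to 621.5 in high Fe. Pan-epithelial markers had 4 of 6 above 0, with a median of 0.15, and 1 of them (Cdh1) did not overlap, beside the same 5.61%. Their sums were 47870 to 51061 in low Fe and 43320 to 53124 in high Fe. Of the goblet, Paneth, enteroendocrine, fibroblast and endothelium, lymphocyte and myeloid, and red blood cell markers, 0 passed, and their list medians were -0.05, 0.43 (1 gene tested), 0.0030, 0.08, -0.06 and -0.21. Among them 3 genes did not overlap between the groups on 230A, where 11.7% of all probe sets tested did not: the collagen gene Col1a2 at 0.57 ± 0.20, the T cell gene Cd8a at -0.66 ± 0.19 and the globin gene Hbb at -0.54 ± 0.19. Related genes of the same lists overlapped. Col3a1 was at 0.16 and Col1a1 at -0.06, the T cell genes Cd3e (230B) and Cd3g at 0.17 and 0.01, and the red blood cell genes Alas2 and Slc4a1 at -0.21 and 0.0069. Col1a2 and Cd8a were dim, with mean signals of 115 and 147 beside a filter bound of 108.9. No marker of these lists was listed at 0 on average, but several lay under the filter on dim probe sets and were not tested. Among these were Defa5 at a mean signal of 11.4 and Itgam at 14.1. The part that a different makeup of the scrapings had in the Espn value was not tested.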

How the data were processed

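The deposited tables hold 1 signal intensity per probe set and array, on a linear scale with no negative value. The software was not given in the sources used here. Judged from the values, the authors had scaled each array to a common trimmed mean (2% left out at each end). Columns were assigned to groups by sample titles, and the group numbers in the titles are called replicates. Titles name 230B where it was used, and the other samples stand in the 230A table. Gene names come from the platform annotation, and 12748 of 12783 probe sets with 1 symbol on 230A and 7524 of 7564 on 230B matched the RefSeq table of GRCr8 through Entrez identifiers.

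Signals were transformed as log2(signal + 16), the dimmest 40% of probe sets by mean were left out, and low Fe was compared with high Fe within each type with limma 3.58.1 (R 4.3.3; lmFit, eBayes with a mean-variance trend), with Benjamini-Hochberg adjustment over the 9520 and 9166 probe sets. Folds are on that scale and understate changes of dim genes. The members and lists were chosen with earlier results of these data known. List genes are represented by their brightest tested probe set, on 230A first, and up to 4 per list, those with the smallest unadjusted p, are named. Deviations of same-numbered arrays from their group means correlated below 0 in every pair (-0.37 to -0.15 on 230A), so no block was used. No arrays were identical. On simulated data with 200 changed probe sets, 5.6% of log2 changes of 0.5 and 61.6% of log2 changes of 1 were recovered on 230A, against 0.4% and 22.8% on 230B. Alternatives were other pseudocounts (1 and 64), filters (none and 60%), scalings and eBayes settings, blocks for the replicate number or the GAPDH ratio set, a threshold of 0.1, and each array left out in turn. Leaving out low Fe replicate 3 and high Fe replicate 2 together was added after the data were seen.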

Additional observations from a re-analysis of the deposited data

How the results depend on the processing

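None of the 7 members passed under any alternative that was run, and the lowest adjusted p of Espn was 0.213, without low Fe replicate 1. Espn was below 0 in all 18 alternatives. The count over all 230A probe sets was 9, and it was 33 after scaling to the hybridization controls, 15 at a threshold of 0.1, 4 with the replicate block, 3 with low Fe replicate 3 and high Fe replicate 2 both left out, and 5 to 21 without 1 array. On 230B it was 0, with 5 after scaling to the hybridization controls. The replicate numbers gave no sign of pairing, and the block changed no other call. Scaling to the hybridization controls moved the median of the 230A members to 0.35, beside 0.34 over all probe sets, and gave Cdhr2 0.35, Cdhr5 0.28, Vil1 0.033, Calml4 0.26, Ush1c 0.35, Clic5 0.18, Lima1 0.11 and Gata6 0.17, all below 0 in the comparison as reported. A common median gave 0.037 for Cdhr2 and 0.037 for Ush1c, quantile normalization 0.027 for Cdhr2, 0.018 for Cdhr5 and -0.11 for Eps8, and the GAPDH block 0.029 for Cdhr2. Without both arrays, Cdhr2 was 0.080, Cdhr5 0.076, Msn -0.040, Krt18 -0.0063 and Eps8l1 -0.41. Without 1 array, Cdhr2 ran from -0.11 to 0.052, Cdhr5 from -0.18 to 0.019, Ezr from -0.040 to 0.10, Pls1 from -0.038 to 0.20, Eps8 from -0.11 to 0.28, Calml4 from -0.21 to 0.00017, Ush1c from -0.25 to 0.12, Nherf1 from -0.053 to 0.068, Gata6 from -0.42 to 0.055 and Eps8l1 from -0.27 to 1.26. Of the 39 genes whose differences were refitted, members included, 29 changed sign or moved by over 1.5 times without 1 array, and Espn was not among them. The cause of these changes was not tested. Moves were scored against the size of each difference, so differences near 0 move easily. Espn had the largest difference of the 7 members, so its absence from the list is no measure of stability. With 3 arrays a group, log2 changes near 0.5 were mostly not recovered in simulated data, so a count of 0 says little about changes of that size.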

Other observations

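The genes whose pattern over the 6 arrays was most like that of Espn and Vil1 were found among all named probe sets tested on the same array type. Nearest to Espn among 8037 on 230A were Slc25a20, the mitochondrial carrier of acylcarnitines (Pearson r = 0.991), Det1, a component of a ubiquitin ligase (r = 0.987), and Adora2b, an adenosine receptor (r = 0.987), with log2 differences of -0.37, -0.49 and -0.41. Nearest to Vil1 among 5004 on 230B were Spata1 (r = 0.992), Pgrmc2, a membrane protein that binds heme (r = 0.966), and Arid1b, a subunit of a chromatin remodelling complex (r = 0.957), with log2 differences of -0.43, -0.39 and -0.26. These are the highest of many values over 6 arrays that share their scaling, and they carry no test. For Vil1 the search was made on 230B, where its probe set lies.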
